A study of Homo sapiens with 8 samples.

Results

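The ErbB receptors and the ligands of the epidermal growth factor (EGF) family were followed as 10 genes chosen by name: the receptor genes EGFR, ERBB2, ERBB3 and ERBB4 and the ligand genes HBEGF, AREG, EREG, TGFA, BTC and NRG1. Their expression was read from 38 probe sets that name one of these genes alone, out of 41091 one-gene probe sets for 19775 genes. Of the 10 genes, 9 had such a probe set, and AREG, which encodes amphiregulin, had none and was not analysed here. Each gene is represented by its probe set with the highest mean over all arrays, its main probe set. Other probe sets are given beside it for some of the genes. Among the 9 main probe sets, 8 exceeded their array's median on 2 arrays or more, and that of ERBB4 did not.

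The cells were A549, an established human lung adenocarcinoma line, grown either as spheroids formed in hanging drops (3D) or as monolayers (2D). Treated 3D and treated 2D cultures were given TNF (10 ng/ml) along with TGFβ (2 ng/ml), renewed once so that there were 2 incubations of 48 h, and control 3D and control 2D cultures received vehicle. The cytokines were always given together, so their separate parts cannot be told apart. Each of the 4 groups has 2 Affymetrix U133 plus 2.0 arrays, described as technical duplicates in the methods and as biological replicates in the deposited design, so the spread between them may be technical. Values are log2 expression from GCRMA, a method that subtracts background and summarizes the probes of a probe set, and a difference of 1 is a doubling of the signal. The lowest value on every array was 2.23 and the array medians lay between 2.43 and 2.50, and a group is called near background when both of its arrays lie below their medians.

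In bulk RNA of this kind, fewer cells of a type and less RNA per cell cannot be told apart. The epithelial markers KRT8, KRT18, KRT19, EPCAM and CDH1 were above the array median in every group. In treated 3D against control 3D cultures 4 of 5 were called lower, against 10.8% of all genes. Among them were EPCAM at −2.20 (adjusted p = 0.0402) and CDH1 at −0.91 (adjusted p = 0.0155). The log2 of the summed level of the 5 markers was 14.7 to 14.8 in treated 3D, 15.4 to 15.5 in control 3D, 15.4 to 15.5 in treated 2D and 15.8 in control 2D cultures. The leukocyte genes PTPRC and CD3E, the endothelial genes CDH5, VWF, TEK and KDR and the fibroblast genes DCN, PDGFRB and COL1A2 were near background in all 4 groups. The rest of these lists was not: in every group 2 of 4 measured leukocyte genes and 1 of 5 endothelial genes exceeded the array median on both arrays. Of 5 fibroblast genes 1 did so in treated 3D, 1 in treated 2D and 0 in each control group. CD14 of the leukocyte list was called lower in treated 3D cultures (−2.86, adjusted p = 0.0477), and the log2 of that list's summed level over 4 measured genes was 6.83 to 7.03 in treated 3D, 9.53 to 9.62 in control 3D, 8.85 to 9.73 in treated 2D and 8.65 to 9.74 in control 2D cultures. For the fibroblast list the log2 of the summed level was 4.72 to 5.66 in treated 3D, 4.60 to 4.69 in control 3D, 4.69 in treated 2D and 4.63 to 4.67 in control 2D cultures, and for the endothelial list it was 5.27 to 5.46 over all groups. The part of these markers in the results on ErbB genes was not tested.

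ErbB receptors are tyrosine kinases of the cell surface that act as dimers. EGFR binds EGF, TGFα, amphiregulin and epiregulin, ERBB2 has no known ligand of its own and serves as the preferred partner of the others, ERBB3 binds neuregulins but has little kinase activity, and ERBB4 binds neuregulins and some EGFR ligands. The ligands are made as membrane proteins and are released by metalloproteases, and the receptors signal through the RAS-ERK and PI3 kinase routes. In lung adenocarcinoma EGFR is a well-known drug target, and in epithelia the family steers growth, survival and migration.

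The 250 bases before the annotated start are shown for genes that were called in spheroids and have an entry in the RefSeq promoter table (GRCh38.p14). In treated against control spheroids EGFR, HBEGF and EREG were called higher and ERBB2 lower. The windows lie at chr7:55018767-55019016 on the plus strand for EGFR, at chr5:140346604-140346853 on the minus strand for HBEGF, at chr4:74364895-74365144 on the plus strand for EREG and at chr17:39687844-39688093 on the plus strand for ERBB2. Each reads 5′ to 3′ in the direction of the gene, and capitals mark the motif matches named after them.
EGFR: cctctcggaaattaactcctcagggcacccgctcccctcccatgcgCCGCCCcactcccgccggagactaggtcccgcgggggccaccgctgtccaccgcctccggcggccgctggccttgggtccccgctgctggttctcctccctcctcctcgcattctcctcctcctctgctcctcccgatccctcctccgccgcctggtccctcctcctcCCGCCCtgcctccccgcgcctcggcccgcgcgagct
HBEGF: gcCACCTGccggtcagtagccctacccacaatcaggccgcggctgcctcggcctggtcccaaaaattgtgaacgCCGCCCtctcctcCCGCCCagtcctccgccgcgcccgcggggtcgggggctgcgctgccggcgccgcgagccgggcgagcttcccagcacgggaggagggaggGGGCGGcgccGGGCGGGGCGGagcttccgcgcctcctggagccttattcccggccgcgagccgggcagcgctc
EREG: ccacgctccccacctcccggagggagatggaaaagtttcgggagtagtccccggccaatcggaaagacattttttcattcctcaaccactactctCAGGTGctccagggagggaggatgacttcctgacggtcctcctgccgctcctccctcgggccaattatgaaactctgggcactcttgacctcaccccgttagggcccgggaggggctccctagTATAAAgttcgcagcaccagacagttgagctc
ERBB2: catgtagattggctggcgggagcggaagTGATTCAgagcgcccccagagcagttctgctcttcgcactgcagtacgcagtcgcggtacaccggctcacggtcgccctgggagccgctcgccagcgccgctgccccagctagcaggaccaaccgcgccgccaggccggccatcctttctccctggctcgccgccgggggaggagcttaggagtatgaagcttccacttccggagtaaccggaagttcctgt

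Motifs were searched on both strands of these windows, and overlapping matches were each counted. They were TGANTCA (a loose form of the AP-1 motif that allows any base in the middle) and the κB motif of NF-κB. The others were GGGCGG (known as a GC box), CACGTG (an E-box bound by MYC), CAGGTG (an E-box bound by ZEB and SNAI factors) and TATAAA (known as a TATA box). The EGFR window held 2 GC boxes and none of the other motifs, and the HBEGF window held 5 GC boxes and 1 CAGGTG. The EREG window held TATAAA 32 bases before the start and 1 CAGGTG. The ERBB2 window held 1 TGANTCA match, read as TGATTCA, 222 bases before the start. That start is the first base of the annotated gene span, chr17:39688094-39728658. Other ERBB2 starts, overlap of the window with a neighbouring gene and binding of any factor were not examined. Among 35116 promoter windows of the same length, 42.6% held a GC box, 17.5% CAGGTG, 10.7% TATAAA, 6.57% TGANTCA, 6.34% CACGTG and 5.07% the κB motif, so each match is of a kind found in many promoters. GC content was 73.6% in the EGFR, 76.4% in the HBEGF, 58% in the EREG and 65.6% in the ERBB2 window, against a median of 58% over all windows. RefSeq lists a second start for EGFR, whose window at chr7:55109589-55109838 had a GC content of 38.8% with 2 matches to TGANTCA and 2 to TATAAA. No window is shown for ERBB3.

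The first comparison asks how the family responded to TNF and TGFβ in spheroids. The receptor genes went in opposite directions: EGFR was 4.22-fold higher in treated than in control 3D cultures, whereas ERBB2 was 4.92-fold and ERBB3 3.93-fold lower. Among the ligands, HBEGF was 4.92-fold and EREG 2.07-fold higher. With limma and Benjamini-Hochberg adjustment over 54613 probe sets at a threshold of 0.05, 5 of the 9 measured genes were called, 3 higher and 2 lower, against 16.4% of all genes (5.53% higher and 10.8% lower). In 8 of 9 genes the treated and control arrays did not overlap, against 47.2% of all genes. The study named EGFR, ERBB2 and ERBB3 for their expression on the same arrays, so their directions are not independent evidence. This comparison and that of the control cultures share the control 3D arrays.

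**Figure D1:**
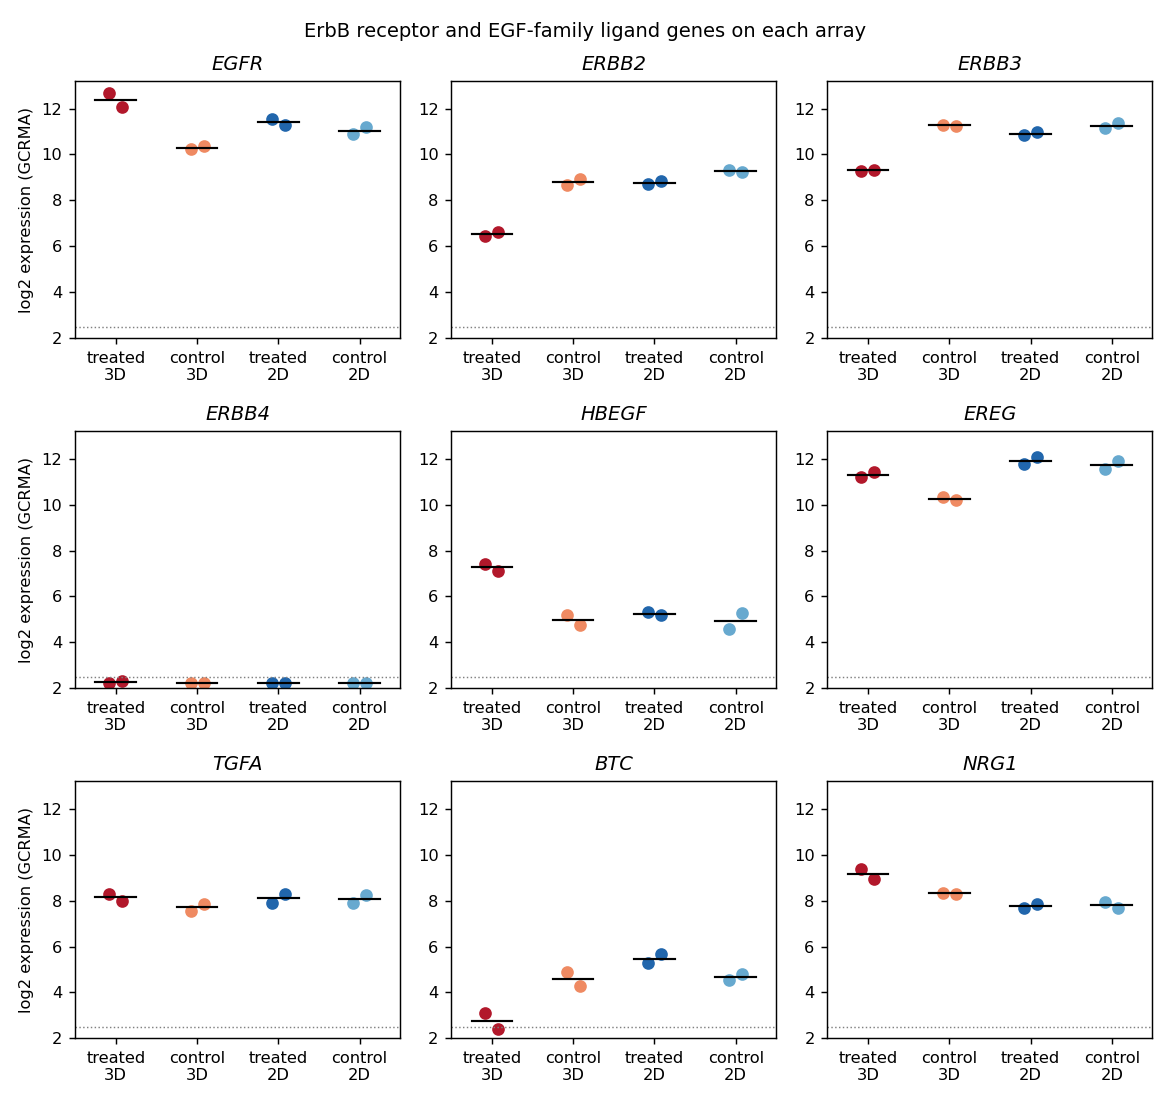
Log2 expression (GCRMA) of the main probe set of each of 9 measured genes on 8 arrays, with 2 points and a bar for the mean in each of treated 3D, control 3D, treated 2D and control 2D cultures; the dotted line is the highest array median, 2.50. EGFR and HBEGF were highest, and ERBB2, ERBB3 and BTC lowest, in treated 3D cultures, while ERBB4 was near background in all groups.

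EGFR read 12.68 and 12.07 in treated 3D cultures, against 10.24 and 10.36 in control 3D cultures, and 11.56 and 11.27 in treated 2D cultures, against 10.88 and 11.18 in control 2D cultures. On this main probe set the treated spheroids were above every other array and the control spheroids below every other array. The means were 12.38 ± 0.44 in treated 3D and 10.30 ± 0.08 in control 3D cultures (SD, n = 2 each), and the log2 fold-change was 2.08 (SE 0.26, 95% interval 1.39 to 2.76, adjusted p = 0.0174). All 5 brighter EGFR probe sets, those that exceeded the array median on 6 or more arrays, were called higher in treated spheroids. Their log2 fold-changes were 1.89 to 2.45, with limma adjusted p of 0.0174 to 0.0394. Of all probe sets 4.18% were called higher, but that share includes dim ones and is not matched for brightness. The dimmer EGFR probe sets 211551_at, 1565484_x_at, 1565483_at and 211550_at were not called. Of the brighter ones, 210984_x_at read 10.16 and 9.16 in treated 3D cultures, against 7.34 and 7.27 in control 3D cultures. In the same groups 211607_x_at read 10.11 and 9.12, against 7.24 and 7.09. On each of the 5 probe sets the treated 3D replicate 1 array was the higher of its pair. The call on the main probe set ended without control 3D replicate 1 (adjusted p = 0.0808), without control 3D replicate 2 (0.0746) and in a fit of the 4 spheroid arrays alone (0.13). Over all single arrays left out, the fold size on the main probe set was 3.41 to 5.21. The calls on 224999_at, 210984_x_at and 211607_x_at ended under more of the alternative fits than that on the main probe set. In a fit of the 4 spheroid arrays alone all 5 calls ended (limma adjusted p = 0.12 to 0.19). These probe sets read 1 gene on the same arrays, so they are not independent evidence.

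ERBB2 read 6.43 and 6.62 in treated 3D cultures, against 8.69 and 8.95 in control 3D cultures, and 8.71 and 8.83 in treated 2D cultures, against 9.33 and 9.24 in control 2D cultures. The treated spheroids thus stood alone, more than a doubling below the lowest of the other 6 arrays. The mean was 6.52 ± 0.14 in treated 3D and 8.82 ± 0.19 in control 3D cultures (SD, n = 2 each), a log2 fold-change of −2.30 (SE 0.12, 95% interval −2.63 to −1.97, adjusted p = 0.00337). A dimmer ERBB2 probe set, 210930_s_at, read 2.66 and 2.26 in treated 3D and 3.80 and 3.60 in control 3D cultures, and its log2 fold-change of −1.24 did not pass (adjusted p = 0.0561). The call on the main probe set ended in a fit of the 4 spheroid arrays alone (adjusted p = 0.0678).

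ERBB3, the partner of ERBB2 in the neuregulin receptor, had spheroid arrays that lay close to each other within each group. Its main probe set read 9.30 and 9.31 in treated 3D cultures, against 11.30 and 11.26 in control 3D cultures, and 10.84 and 10.98 in treated 2D cultures, against 11.14 and 11.38 in control 2D cultures. Control spheroids and control monolayers overlapped, and treated spheroids lay apart from both. The mean was 9.31 ± 0.01 in treated 3D and 11.28 ± 0.03 in control 3D cultures (SD, n = 2 each), with a log2 fold-change of −1.97 (SE 0.09, 95% interval −2.23 to −1.72, adjusted p = 0.00287). The probe set 202454_s_at gave −2.04 (adjusted p = 0.00275), and 1563253_s_at, at 6.93 and 6.76 in treated 3D and 8.64 and 7.88 in control 3D cultures, gave −1.41 and did not pass (adjusted p = 0.057). ERBB3 was the only gene of the family whose call on the main probe set passed under all 13 alternatives (adjusted p up to 0.0181).

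ERBB4 was near background in every group on all 4 of its probe sets. Its main probe set read 2.23 and 2.30 in treated 3D cultures and 2.23 on the other 6 arrays, and the remaining 3 probe sets had one and the same value, 2.23, on all arrays. No fold is given for it, and a level of ERBB4 RNA below the background of the array was not detectable.

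HBEGF encodes heparin-binding EGF-like growth factor, a ligand of EGFR and ERBB4. It read 7.41 and 7.13 in treated 3D cultures, against 5.18 and 4.76 in control 3D cultures, and 5.33 and 5.18 in treated 2D cultures, against 4.60 and 5.26 in control 2D cultures. Only the treated spheroids departed from a common range of 4.60 to 5.33. The mean was 7.27 ± 0.20 in treated 3D and 4.97 ± 0.29 in control 3D cultures (SD, n = 2 each), a log2 fold-change of 2.30 (SE 0.29, 95% interval 1.53 to 3.07, adjusted p = 0.0177). A second probe set, 38037_at, read 4.26 and 3.26 in treated 3D cultures and was near background in the other groups, which makes it at least 2.51-fold higher against the medians of the control 3D arrays (adjusted p = 0.0815). One more, 244857_at, was called (adjusted p = 0.00203) but was near background in every group. The call on the main probe set ended without either treated 2D array (adjusted p = 0.0524 each), without control 3D replicate 1 (0.0531), control 3D replicate 2 (0.0751) or treated 3D replicate 1 (0.0541), and in a fit of the spheroid arrays alone (0.0963), while the fold size stayed between 4.26 and 5.66 over the single arrays left out.

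EREG, which encodes epiregulin, another ligand of EGFR and ERBB4, was bright in all groups. It read 11.19 and 11.42 in treated 3D cultures, against 10.32 and 10.19 in control 3D cultures, and 11.77 and 12.06 in treated 2D cultures, against 11.54 and 11.89 in control 2D cultures. The control spheroids were the lowest and all monolayers were above all spheroids. The log2 fold-change in spheroids was 1.05 (SE 0.18, 95% interval 0.57 to 1.52, adjusted p = 0.036), from means of 11.30 ± 0.16 in treated 3D and 10.26 ± 0.09 in control 3D cultures (SD, n = 2 each). This was the weakest of the 5 calls: it ended without any one of the 8 arrays (adjusted p = 0.0569 to 0.15; 0.0569 without either control 2D array, 0.0657 without either treated 2D array, 0.118 and 0.15 without control 3D replicates 1 and 2, 0.0662 and 0.121 without treated 3D replicates 1 and 2) and in a fit of the spheroid arrays alone (0.11). On the RefSeq gene map EREG, AREG and BTC follow each other as neighbouring protein-coding genes, and the log2 fold-changes of EREG and BTC in spheroids had opposite signs.

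BTC, which encodes betacellulin, read 3.12 and 2.42 in treated 3D cultures, against 4.89 and 4.27 in control 3D cultures, and 5.27 and 5.68 in treated 2D cultures, against 4.55 and 4.80 in control 2D cultures. Of the treated spheroids, 1 of 2 arrays was below its array median. The log2 fold-change was −1.81 in spheroids (SE 0.36, 95% interval −2.78 to −0.85, adjusted p = 0.0515), just short of the threshold. It passed with an intensity trend (adjusted p = 0.0433), after quantile normalization (0.0419) and with a filter on dim probe sets (0.0112).

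NRG1, which encodes neuregulin 1, the ligand of ERBB3 and ERBB4, read 9.38 and 8.96 in treated 3D cultures, against 8.35 and 8.29 in control 3D cultures, and 7.67 and 7.87 in treated 2D cultures, against 7.96 and 7.67 in control 2D cultures. All spheroids were above all monolayers on this probe set. The log2 fold-change in spheroids was 0.85 (SE 0.19, 95% interval 0.33 to 1.36) and did not pass (adjusted p = 0.0718), though it did after quantile normalization (0.0426) and with a filter on dim probe sets (0.0187). NRG1 makes many isoforms from several starts, and its 5 brighter probe sets gave log2 fold-changes of 0.07 to 1.19 in spheroids, with none called.

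TGFA, which encodes transforming growth factor α, a ligand of EGFR, varied least among the expressed ligands. It read 8.30 and 8.00 in treated 3D cultures, against 7.55 and 7.87 in control 3D cultures, and 7.89 and 8.30 in treated 2D cultures, against 7.89 and 8.24 in control 2D cultures. The log2 fold-change in spheroids was 0.44 (95% interval −0.20 to 1.08, adjusted p = 0.473), so a rise up to a doubling lies within the interval. A dimmer TGFA probe set, 205015_s_at, read 2.44 and 2.50 in treated 3D and 2.71 and 2.50 in control 3D cultures. Its log2 fold-change in spheroids was −0.14 (adjusted p = 0.486).

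**Figure D2:**
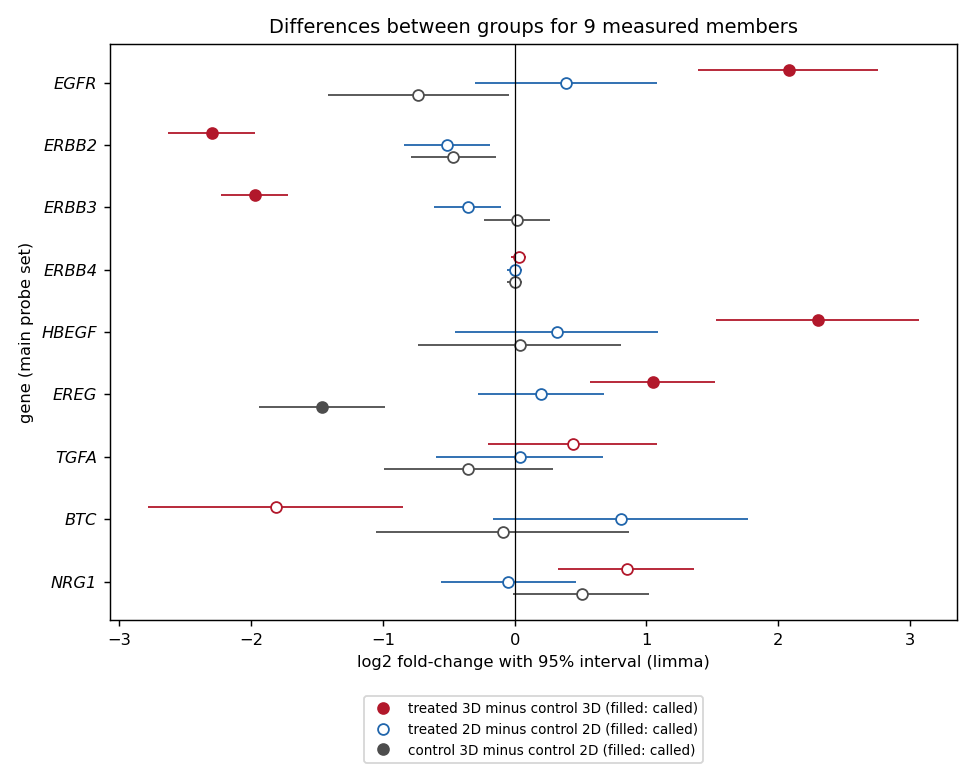
Log2 fold-change with its 95% interval from limma for the main probe set of each gene, for treated 3D minus control 3D (red), treated 2D minus control 2D (blue) and control 3D minus control 2D (grey), with filled points for called differences. EGFR, HBEGF and EREG lie to the right and ERBB2 and ERBB3 to the left in spheroids, every monolayer interval but those of ERBB2 and ERBB3 crosses 0, and no monolayer difference was called.

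In monolayers the same treatment gave no called member. Of 9 measured genes 0 passed in treated 2D against control 2D cultures, where 0.197% of all genes (39 genes, 0.121% higher and 0.0759% lower) were called by limma, and 2 of 9, ERBB2 and ERBB3, had an unadjusted p under 0.05, against 10.7% of genes. ERBB2 had a log2 fold-change of −0.51 (95% interval −0.84 to −0.19, adjusted p = 0.335), with means of 8.77 ± 0.08 in treated 2D and 9.29 ± 0.06 in control 2D cultures (SD, n = 2 each). ERBB3 had −0.35 (95% interval −0.61 to −0.10, adjusted p = 0.397), with means of 10.91 ± 0.10 in treated 2D and 11.26 ± 0.17 in control 2D cultures. EGFR had 0.39 (95% interval −0.30 to 1.08, adjusted p = 0.92) and BTC 0.81 (95% interval −0.16 to 1.77, adjusted p = 0.78), and for both the treated arrays lay above the control arrays. HBEGF, EREG, TGFA and NRG1 had log2 fold-changes of 0.32, 0.20, 0.04 and −0.05 (adjusted p = 1 each), with overlapping groups. In all, 4 of 9 genes had groups that did not overlap, against 29.3% of all genes.

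Whether the response differed between culture types was tested as the response in 3D minus the response in 2D. ERBB2 and ERBB3 passed, 2 of 9 genes and both lower, against 3.26% of all genes (1.32% higher and 1.94% lower). ERBB2 had a difference of −1.78 on the log2 scale (SE 0.17, 95% interval −2.25 to −1.32, adjusted p = 0.0286), and ERBB3 had a difference of −1.62 (SE 0.13, 95% interval −1.98 to −1.26, adjusted p = 0.0207). The second ERBB3 probe set, 202454_s_at, gave −1.70 (adjusted p = 0.0195). Neither 1563253_s_at of ERBB3, at −1.19 (adjusted p = 0.277), nor the dimmer 210930_s_at of ERBB2, at −1.01 (adjusted p = 0.293), passed. With replicate number as a block, the main probe sets of ERBB2 and ERBB3 did not pass (adjusted p = 0.0587 and 0.0513). The other differences did not pass: BTC had −2.62 (95% interval −3.98 to −1.26, adjusted p = 0.0969), HBEGF 1.98 (0.89 to 3.06, adjusted p = 0.106), EGFR 1.69 (0.71 to 2.66, adjusted p = 0.117), NRG1 0.89 (0.17 to 1.62, adjusted p = 0.221), EREG 0.85 (0.17 to 1.52, adjusted p = 0.213) and TGFA 0.40 (−0.50 to 1.30, adjusted p = 0.751). With a filter on dim probe sets, BTC (limma adjusted p = 0.0251), HBEGF (0.0291) and EGFR (0.0326) passed as well. That filter raised the calls over all probe sets too, to 3972 of 28188 from 1268 of 54613. Without treated 3D replicate 2 the EGFR difference was 2.00. The ERBB2 difference did not pass without control 2D replicate 1 (adjusted p = 0.0507), control 2D replicate 2 (0.0689), treated 2D replicate 1 (0.0637) or treated 2D replicate 2 (0.0646).

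The last comparison sets untreated spheroids against untreated monolayers. EREG was 2.75-fold lower in control 3D than in control 2D cultures, with a log2 fold-change of −1.46 (SE 0.18, 95% interval −1.94 to −0.98, adjusted p = 0.0251) and means of 10.26 ± 0.09 in control 3D and 11.72 ± 0.24 in control 2D cultures (SD, n = 2 each). It was the 1 call among 9 genes, against 10.7% of all genes (5.77% higher and 4.9% lower), and 5 of 9 genes had groups that did not overlap, against 44.5% of all genes. The EREG call ended without control 2D replicate 2 (adjusted p = 0.0713), without either treated 2D array (0.051 each), without control 3D replicates 1 and 2 in turn (0.0769 and 0.0996), without either treated 3D array (0.0573 each) and in a fit of the 4 control arrays alone (0.126). ERBB2 had −0.47 (95% interval −0.79 to −0.14, adjusted p = 0.119), and EGFR −0.73 (−1.42 to −0.04, adjusted p = 0.227). ERBB3 and HBEGF had 0.02 (−0.23 to 0.27) and 0.04 (−0.73 to 0.81), with adjusted p of 1. NRG1 had 0.51 (−0.01 to 1.02, adjusted p = 0.261), TGFA −0.35 (−0.99 to 0.29, adjusted p = 0.591) and BTC −0.09 (−1.05 to 0.87, adjusted p = 1).

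For EGFR and NRG1 the probe sets went different ways between untreated spheroids and monolayers. The EGFR probe set 201983_s_at read 10.24 and 10.36 in control 3D, against 10.88 and 11.18 in control 2D cultures, while 201984_s_at read 8.54 and 8.51 in control 3D, against 7.22 and 7.61 in control 2D cultures. Neither pair of groups overlapped, and the log2 fold-changes were −0.73 and 1.11 (adjusted p = 0.227 and 0.126), with 224999_at at −0.52, 210984_x_at at 0.07 and 211607_x_at at −0.04, so no direction is given for EGFR in this comparison. For NRG1, 206343_s_at and 208232_x_at gave 0.51 and 0.43, whereas 206237_s_at, 208230_s_at and 208241_at gave −0.90, −0.67 and −0.99, none of them called. Which transcripts each probe set reads was not examined here. In treated against control spheroids, the 3 brighter ERBB3 probe sets gave −1.97, −2.04 and −1.41, of which 2 were called lower. Of all probe sets, dim ones included, 6.66% were called lower, a share not matched for brightness. The dimmer ERBB3 probe sets 215638_at and 1563252_at were not called.

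**Figure D3:**
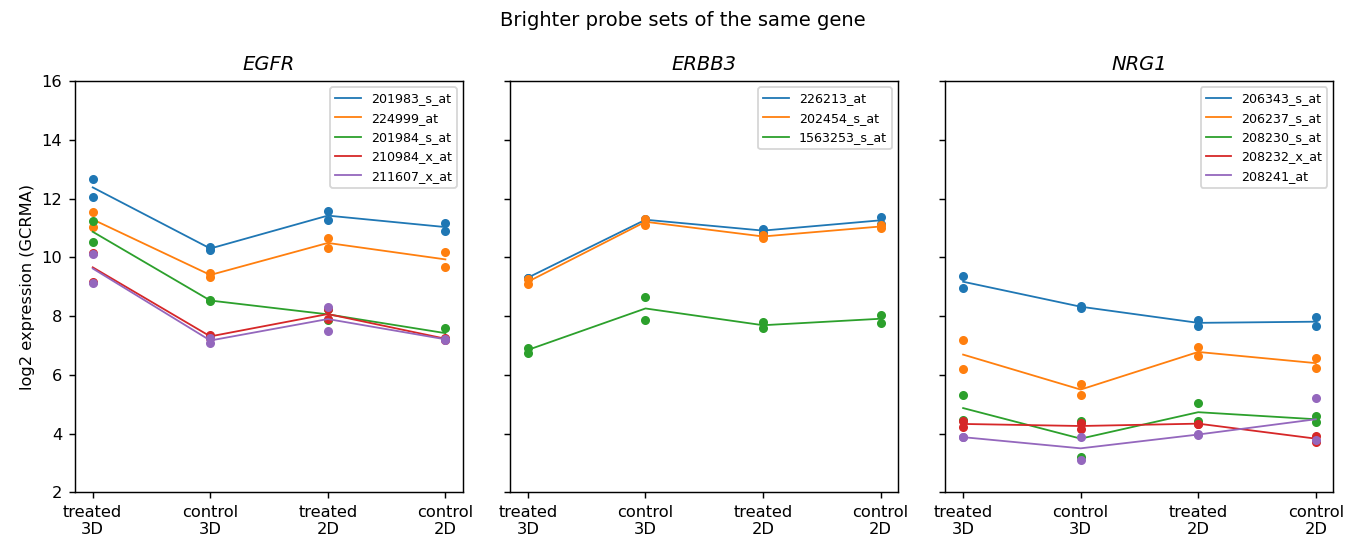
Log2 expression (GCRMA) of the probe sets of EGFR, ERBB3 and NRG1 that exceeded the array median on 6 or more arrays, with points for the arrays and lines joining the means of treated 3D, control 3D, treated 2D and control 2D cultures. The EGFR probe sets were all highest in treated 3D cultures but differ in the order of control 3D and control 2D, and the 5 NRG1 probe sets do not share a pattern.

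Ordered by group mean of the main probe set, EGFR ran treated 3D, treated 2D, control 2D, control 3D (12.38, 11.42, 11.03 and 10.30), and of the neighbours tested in this order neither treated 2D and control 2D nor control 2D and control 3D differed by a call. On 201984_s_at the EGFR order was treated 3D, control 3D, treated 2D, control 2D (10.87, 8.53, 8.06 and 7.42). ERBB2 ran control 2D, control 3D, treated 2D, treated 3D (9.29, 8.82, 8.77 and 6.52), and the arrays of control 3D and treated 2D overlapped. ERBB3 ran control 3D, control 2D, treated 2D, treated 3D (11.28, 11.26, 10.91 and 9.31), with overlapping arrays in the controls. HBEGF had 7.27 in treated 3D and then 5.25, 4.97 and 4.93 in treated 2D, control 3D and control 2D cultures, the last 3 overlapping. EREG ran treated 2D, control 2D, treated 3D, control 3D (11.92, 11.72, 11.30 and 10.26), with the monolayers overlapping. BTC ran treated 2D, control 2D, control 3D, treated 3D (5.48, 4.67, 4.58 and 2.77), with the controls overlapping. TGFA had 8.15, 8.10 and 8.06 in treated 3D, treated 2D and control 2D cultures, which overlapped, and 7.71 in control 3D cultures. NRG1 ran treated 3D, control 3D, control 2D, treated 2D (9.17, 8.32, 7.81 and 7.77), with the monolayers overlapping, whereas on 206237_s_at control 3D was lowest (6.78, 6.69, 6.40 and 5.50 in treated 2D, treated 3D, control 2D and control 3D cultures).

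The genes around the receptors were counted in lists by role. Of the other ligands, 4 of 5 were measured (EGF, NRG2, NRG3 and NRG4) and 0 were called in any comparison, with a median log2 fold-change of −0.12 in spheroids against 0.0 over all genes. EGF, the ligand that gave the family its name, read 6.75 and 4.77 in treated 3D cultures, against 3.06 and 2.94 in control 3D cultures, and 2.95 and 3.20 in treated 2D cultures, against 3.05 and 2.99 in control 2D cultures. Its log2 fold-change of 2.76 in spheroids did not pass (adjusted p = 0.0891), with an SD of 1.40 between the treated 3D arrays. NRG3 was at 2.23 on all arrays.

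Of the 11 sheddases, iRhoms and related proteases, which release the ligands from the membrane or escort the enzymes that do, 3 were called higher and 0 lower in treated 3D cultures (median −0.08, all genes 0.0), where 5.53% of all genes were called higher and 10.8% lower. ADAM19, a metalloprotease that can cleave neuregulin, read 7.70 and 6.61 in treated 3D cultures, against 2.67 and 2.39 in control 3D cultures, of which 1 was below its array median, and 2.68 to 3.22 in the monolayers. Its log2 fold-change was 4.63 (SE 0.42, adjusted p = 0.00935). ADAM17, the main sheddase of TGFα, amphiregulin and HB-EGF, had 0.71 (adjusted p = 0.048) and RHBDF2, an iRhom that escorts ADAM17, 0.98 (adjusted p = 0.0246).

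Of 15 inhibitors and degradation factors of the receptors, 3 were called higher and 1 lower in treated 3D cultures (median −0.02), beside the same 5.53% and 10.8% of all genes. SH3KBP1, an adaptor (CIN85) that joins CBL to endocytosis of receptors, read 12.98 and 12.86 in treated 3D cultures, against 11.21 and 11.33 in control 3D cultures, a log2 fold-change of 1.65 (SE 0.11, adjusted p = 0.0051). The ubiquitin ligase genes CBLB and CBL, whose products mark EGFR for degradation, had 0.83 (adjusted p = 0.0449) and 0.77 (adjusted p = 0.0128), and USP8, a deubiquitinase that acts on endocytosed receptors, had −0.81 (adjusted p = 0.0251). ERRFI1, a feedback inhibitor of EGFR kinase activity, set spheroids apart from monolayers: it read 13.08 and 13.10 in control 3D cultures, against 11.24 and 11.06 in control 2D cultures, a log2 fold-change of 1.94 (SE 0.10, adjusted p = 0.00637), while its change with treatment in spheroids was 0.42 (adjusted p = 0.0808).

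Of 18 listed adaptors and proximal effectors 16 were measured. Of these, 1 was called higher and 3 lower in treated 3D cultures (median −0.15), again beside 5.53% and 10.8% of all genes. VAV3 read 7.31 and 6.83 in treated 3D cultures, against 9.64 and 9.48 in control 3D cultures, a log2 fold-change of −2.49 (SE 0.23, adjusted p = 0.00928). GAB2, a docking protein for PI3 kinase and SHP2, had 1.01 (adjusted p = 0.0105), and SHC1 and SRC had −0.54 (adjusted p = 0.0457) and −0.42 (adjusted p = 0.0266). Of 11 listed members of the RAS-ERK cascade only 6 were measured, and their median was 0.06. MAP2K1, which encodes the ERK kinase MEK1, was called higher at 1.25 (limma adjusted p = 0.0153) and ARAF lower at −0.35 (0.0122). Over the 5 lists, 13 of 52 measured genes were called in treated 3D cultures, against 16.4% of all genes. In treated against control monolayers 0 genes of these 5 lists were called by limma. For SH3KBP1 and GAB2 the response itself was greater in spheroids than in monolayers, by 1.42 (adjusted p = 0.0362) and 1.04 (adjusted p = 0.0497).

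Between untreated spheroids and monolayers, 10 of the 52 measured genes of these lists were called, against 10.7% of all genes. Besides ERRFI1, BACE1 (1.14, adjusted p = 0.048), GAB2 (0.80, adjusted p = 0.0251) and NCK1 (0.74, adjusted p = 0.0445) were higher in control 3D cultures. SRC (−1.05, adjusted p = 0.00776), SOCS4 (−1.12, adjusted p = 0.0434), PTPN11 (−0.97, adjusted p = 0.0294), KSR1 (−0.92, adjusted p = 0.0151), RHBDF2 (−0.91, adjusted p = 0.0396) and PIK3CB (−0.59, adjusted p = 0.0484) were lower. PTPN11 encodes the phosphatase SHP2, which carries receptor signals to RAS, and KSR1 is a scaffold of the ERK cascade.

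**Figure D4:**
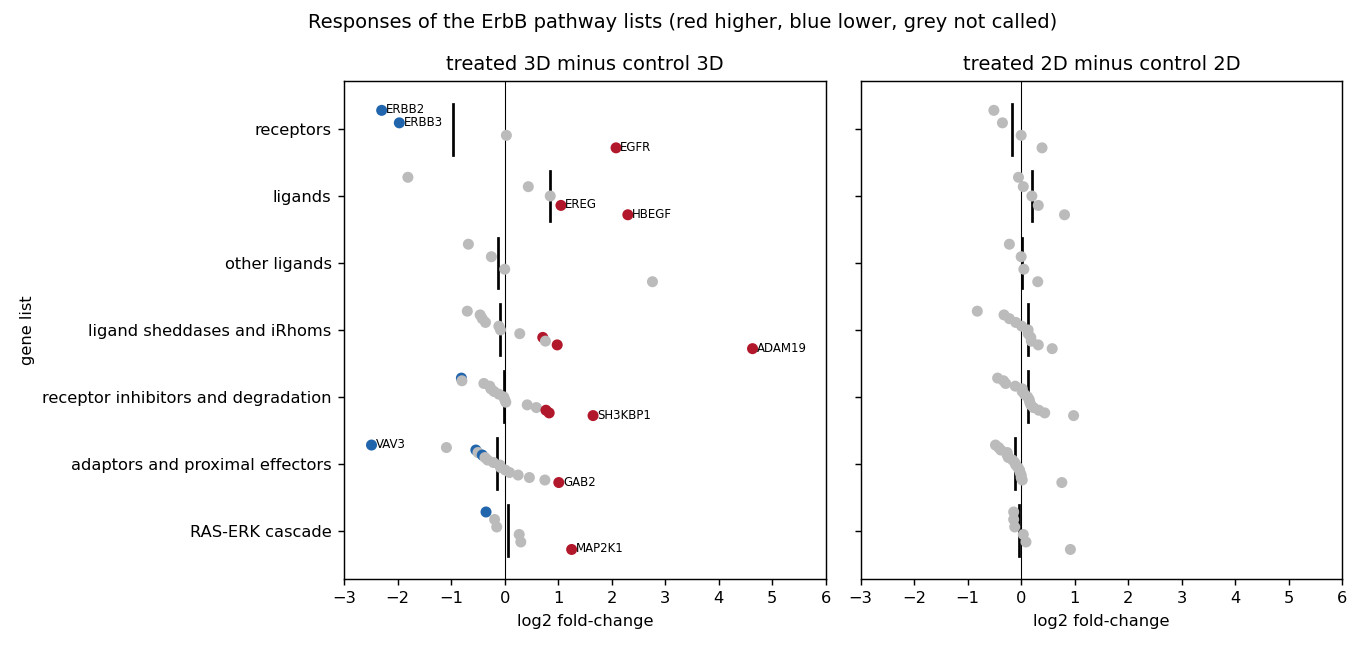
Log2 fold-change of each measured gene by list, for treated 3D minus control 3D (left) and treated 2D minus control 2D (right), with red points for genes called higher, blue for genes called lower, grey for the others and a black bar for the list median; called genes that changed by at least 1 on the log2 scale are named. ADAM19 at 4.63 lies farthest to the right and VAV3 at −2.49 farthest to the left in spheroids, and no gene was called in monolayers.

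Of the 13 list calls in treated against control spheroids, those of ADAM19, SH3KBP1, GAB2 and VAV3 passed whichever single array was left out. Without control 3D replicate 1 or 2, 5 of 13 passed in each case (adjusted p of the others up to 0.182 and 0.167), without either control 2D array 8 (up to 0.105), without either treated 2D array 7 (up to 0.112), without treated 3D replicate 1 9 (up to 0.107) and without treated 3D replicate 2 10 (up to 0.156), and 0 of 13 in a fit of the spheroid arrays alone (up to 0.245). Of the 10 calls between control cultures, 3 or 4 passed when a single array was left out. Of the differences of response, the SH3KBP1 and GAB2 calls both ended without either treated 2D array (adjusted p up to 0.117) and after quantile normalization (up to 0.0558). The SH3KBP1 call also ended without either control 3D array (up to 0.0749), and the GAB2 call without either control 2D array (up to 0.119) and without treated 3D replicate 2 (0.0746).

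The genes whose main probe set ran most nearly parallel to that of EGFR over the 8 arrays, among 4536 genes whose group means spanned at least 1 on the log2 scale, were IL11 (r = 0.983), SOCS2 (0.98), LOC102723692 (0.98) and SAMD4A (0.977). For ERBB3 they were SLC51B (r = 0.996), SULT1C2 (0.993), EGLN1 (0.993) and TRIM6 (0.991). IL11, an IL-6 family cytokine gene, averaged 9.72 in treated 3D and 3.11 in control 3D cultures, and SLC51B, which encodes one chain of a bile acid exporter, averaged 3.77 in treated 3D and 8.90 in control 3D cultures. These correlations describe 4 groups of 2 arrays and carry no test.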

How the data were processed

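The authors hybridized RNA of A549 cultures to Affymetrix U133 plus 2.0 arrays and deposited log2 expression values made with GCRMA. The submitters' processing notes give limma 3.6.9, and no version of GCRMA is given in the sources used here. No genome build is given for the array values in those sources either. The table holds 54675 probe sets, and all but 62 Affymetrix controls entered the tests (54613). Probe sets were named through the platform annotation, and 1801 that name several genes and 11721 unnamed in that table were not counted as genes.

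Group means of all 8 arrays were fitted with limma 3.58.1 (lmFit, eBayes) in R 4.3.3, and p-values were adjusted by Benjamini-Hochberg across the whole table, and a difference was called at an adjusted p under 0.05. Residual degrees of freedom were 4, with 0.347 from the prior. Precision is limited by the number of arrays. The fit was also run on simulated arrays with independent normal spread. That setting lacks shared replicate effects and the lower limit of these values, so it cannot speak to either. Figures come from matplotlib 3.10.9 and Python 3.11.15.

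Members and gene lists were chosen with earlier results of these data known. The genes named are the members, up to 4 called genes of each list in spheroids and up to 2 more in each other comparison, and 4 genes closest in pattern to EGFR and to ERBB3. ERRFI1 in treated spheroids, EGF, NRG3 and the third and later genes of a list in the control comparison were named after their values were seen.

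Alternatives were replicate number as a block, an intensity trend, quantile normalization, removal of dim probe sets (those exceeding the array median on fewer than 2 arrays), only the arrays compared, another probe set per gene, and each array left out. When a group keeps 1 array, its spread is taken from the other groups. Counts for the pathway lists under these alternatives were added after seeing the data.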

Additional observations from a re-analysis of the deposited data

Results flagged for a closer look

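ERBB2 and ERBB3 were set aside because the response to TNF and TGFβ differed between spheroids and monolayers in a test of the difference itself. For ERBB2 the response in 3D minus that in 2D was −1.78 on the log2 scale (limma adjusted p = 0.0286), with responses of −2.30 in 3D and −0.51 in 2D. For ERBB3 it was −1.62 (limma adjusted p = 0.0207), with responses of −1.97 in 3D and −0.35 in 2D. On the main probe sets, all treated arrays were below all control arrays of the same culture type for both genes. Over all genes 3.26% were called for this difference. Neither call passed with replicate number as a block (limma adjusted p = 0.0587 for ERBB2 and 0.0513 for ERBB3). The ERBB2 call also ended whichever monolayer array was left out. Over all single arrays left out, the ERBB2 difference stayed between −1.92 and −1.65. The differences on 210930_s_at of ERBB2 and 1563253_s_at of ERBB3 were not called.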

How the results depend on the processing

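Over 84 member results and 1067 alternative values, 983 kept their side of the threshold, 62 lost the call and 22 gained it. The sign changed in 23 of these values, of which 0 were called with or without the alternative. The replicate numbers were not taken to pair the arrays in the main fit. Deviations from group means correlated at 0.283 between treated 2D and control 2D arrays and at −0.0145 to 0.0895 between other groups. Whether the monolayer arrays of the same number share an effect was not tested. With replicate number as a block, the members called fell to 3 (5 without it) in treated against control spheroids, where HBEGF and EREG ended (adjusted p = 0.0527 and 0.0511), and to 0 (2 without it) for the difference of responses, where ERBB2 had 0.0587 and ERBB3 0.0513. The block moved the probe sets called to 3883 (5919 without it) in treated against control spheroids, 29 (100) in monolayers, 480 (1268) for the difference and 1788 (3983) between controls. Of the list calls 9 of 13, 0 of 2 and 4 of 10 passed with the block.

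The filter on dim probe sets left 28188 to test, against 54613 in the main fit. With it, 9395, 444, 3972 and 7858 probe sets were called in those 4 comparisons, against 5919, 100, 1268 and 3983. Calls thus rose over all probe sets too. The members called were 7 in spheroids (5 without the filter), 5 for the difference (2) and 2 between controls (1). Between controls ERBB2 passed with the filter (limma adjusted p = 0.0424). In fits of only the arrays compared, which have 2 residual degrees of freedom, 981 probe sets and 1 member were called in spheroids, 19 probe sets in monolayers, and 478 probe sets and 0 members between controls. With single arrays left out, the members called ranged over 2 to 4 in spheroids, 0 to 0 in monolayers, 1 to 3 for the difference and 0 to 1 between controls. The probe sets called ranged over 3630 to 7906, 37 to 1585, 1414 to 5216 and 2143 to 3636. Of the probe sets called in spheroids 38.6% were higher, against 59.8% and 64.2% without treated 3D replicates 1 and 2, and 28.5% and 29.7% without control 3D replicates 1 and 2. Without treated 3D replicate 1, ERBB4, near background throughout, was called in spheroids (adjusted p = 5.87e-06) and for the difference (1.37e-05). The cause of these shifts was not tested. Genes near the array median, such as ERBB4, have no usable level on this scale.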
